A study of Mus musculus with 35 samples.

Results

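Ciliated cell and axoneme genes were followed here in lung RNA from mice given 3 code-named nanomaterials. The group was a list of 38 genes that are known to build, power or switch on the motile cilia of the airway epithelium. Members were taken as every array probe whose RefSeq accession belonged to a listed gene. This found 46 probes for 35 of the 38 genes, out of 20660 genes with a symbol on the array, and 33 of the 35 were bright enough to be tested. Ccdc114, Dnah12 and Ccdc40 had no matching probe. Dnah9 had no probe above background on any array, and Spag6 had probes above background on at most 2 arrays.

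All animals were female C57BL/6 mice of 5 to 7 weeks, with no allele or transgene named in the labels. Each treated mouse received 1 of the materials NRCWE-043, NRCWE-044 and NRCWE-045 by a single instillation into the trachea, at 18 µg or 54 µg in 40 µl, and lungs were taken 24 h later. Controls were labelled with a dose of 0 µg, and the labels do not say what those animals were instilled with. The series title gives its purpose as a ranking of nanomaterials by how strongly they disturb pathways in the lung. Each of the 7 groups held 5 arrays, and each array carried lung RNA in the red channel (Cy5) and a universal reference RNA from 11 mouse cell lines in the green channel (Cy3). Every level below is the log2 ratio of lung to reference RNA, and every change is a difference of such levels between group means. RNA came from random sections of the lung, and the labels do not say that the 5 samples of a group were 5 separate mice, so the p-values are relative to how these samples spread, which may be technical. The materials are known here only by code name, so nothing is said of their structure.

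A motile cilium is a whip of microtubules, the axoneme, in which doublet microtubules form a ring around a central pair. Outer and inner dynein arms on the doublets make them slide, nexin links and radial spokes turn the sliding into bending, and the central pair sets the pattern of the beat. Multiciliated cells of the airway carry many such cilia and move mucus and trapped particles out of the lung. Their differentiation is started by multicilin (Mcidas) and carried on by the transcription factor Foxj1 together with RFX factors, which bind a sequence called the X-box in front of many cilium genes.

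The promoters of the members were searched for that sequence, since RFX factors are among the members. Whether the matches go with the members' changes was not tested. RefSeq promoter windows on GRCm38.p6, each holding 250 bases before and 50 bases after a gene's start, were found for 33 member genes with 39 promoters. None was used for Foxj1, Lrrc6, Rsph1, Rsph4a and Tppp3. An arm of the X-box, GTTGCC on either strand, lay in 18 of the 39 promoters (46.2%), against 12.5% of all 32851 promoters of the same length. Both arms together on either strand, GTTGCC, then any 2 bases, then GG, any 1 base and AAC, lay in 0 of the 39 and in 0.298% of all. With 0 to 3 bases allowed between the arms, a form searched after the promoters had been read, they lay in 1 of the 39 (2.56%), that of 1110017D15Rik, and in 0.551% of all. The second arm was searched only in this spelling. A stretch that departs from it, such as agcaac after GTTGCCt in Dynlrb2, was not counted. The forkhead words TGTTTAC and TGTTTGT, each on either strand, lay in 2.56% of member promoters apiece, against 3.65% and 6.61% of all. In the last 60 bases before the start, a window chosen after the matches were seen, the arm lay in 10 of 39 member promoters (25.6%) and in 2.92% of all.

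The sequences below are the promoters of members whose values are described further on, each written 5′ to 3′ along the gene and ending at the base before its start, with GTTGCC or its reverse complement GGCAAC in capitals. The first 5 are 60 bases long and were picked from the 10 member promoters with an arm in that stretch. Dnai2, Hydin and Tekt1 belong to different parts of the axoneme, while 1110017D15Rik and Dynlrb2 were listed under other roles. Mcidas and Tubb4b are given over 250 bases because they departed furthest from the other members, and the Tubb4b stretch holds no match. They stand, in the order printed, at chr4:41507765-41507824 on the minus strand, chr11:114727359-114727418 on the plus strand, chr8:110266917-110266976 on the plus strand, chr8:116504955-116505014 on the plus strand, chr11:72361883-72361942 on the minus strand, chr13:112993618-112993867 on the plus strand and chr2:25224703-25224952 on the minus strand.
1110017D15Rik: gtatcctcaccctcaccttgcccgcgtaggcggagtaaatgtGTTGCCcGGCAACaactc
Dnai2: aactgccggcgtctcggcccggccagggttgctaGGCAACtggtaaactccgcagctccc
Hydin: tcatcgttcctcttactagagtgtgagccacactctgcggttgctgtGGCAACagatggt
Dynlrb2: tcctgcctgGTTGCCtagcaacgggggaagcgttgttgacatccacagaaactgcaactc
Tekt1: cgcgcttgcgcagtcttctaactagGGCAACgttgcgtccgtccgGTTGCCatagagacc
Mcidas: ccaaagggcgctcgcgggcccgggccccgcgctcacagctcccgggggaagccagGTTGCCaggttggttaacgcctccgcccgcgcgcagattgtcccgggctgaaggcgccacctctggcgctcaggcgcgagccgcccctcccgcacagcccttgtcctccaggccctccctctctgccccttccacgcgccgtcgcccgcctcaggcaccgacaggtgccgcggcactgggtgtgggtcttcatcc
Tubb4b: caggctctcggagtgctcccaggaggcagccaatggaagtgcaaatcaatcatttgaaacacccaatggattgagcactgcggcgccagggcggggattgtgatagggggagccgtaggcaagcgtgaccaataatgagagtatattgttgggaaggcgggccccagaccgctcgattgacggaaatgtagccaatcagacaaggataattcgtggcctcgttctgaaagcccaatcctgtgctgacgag
A match describes the letters of the window and does not show that a factor bound there.

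Signal quality differed between arrays. Between 42.8% and 69.3% of probes lay well above background in Cy5, and the median raw Cy5 intensity ranged from 84.5 to 329. The highest intensity was that of NRCWE-044 replicate 23 at 18 µg. That array and NRCWE-044 replicate 6 at 18 µg correlated with any other array at most at 0.930 and 0.875. Every other array reached 0.957 or more. The arrays lay on 7 slides scanned on 6 days. Controls lay on 4 of the slides, with 2 on slide 1 and 1 each on slides 3, 5 and 6. Marker lists of alveolar type 1 and type 2 cells averaged 4.33 and 5.38 in the controls, so that the arrays carried the markers of lung that the label names. Of the 33 tested members, 25 lay well above background in Cy5 on all 35 arrays and 26 passed the brightness filter in all 7 groups. The dimmest were Spag16 and Spag17, above background on 15 arrays each, Rfx3 and Spef2 on 17, Ak7 on 21, Lrrc6 on 25 and Rfx2 on 26, so a fall in these 7 would be hard to see. In the reference RNA, Dnah5, Dnah6, Ccdc39 and Cdhr3 were above background on no array.

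At 54 µg most axonemal genes lay below control under all 3 materials, by amounts that mostly stayed within the spread between arrays. With NRCWE-043, 27 of the 33 members were below control and the median change was -0.41. With NRCWE-044, 30 of 33 were below and the median was -0.37, and with NRCWE-045, 29 of 33 were below and the median was -0.21. Over all 25534 features tested, 48.5%, 49.0% and 47.5% were below control in the same comparisons and the medians lay between 0.00 and 0.01. The 3 comparisons share the same 5 control arrays, so their members' changes are not independent of each other.

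**Figure D1:**
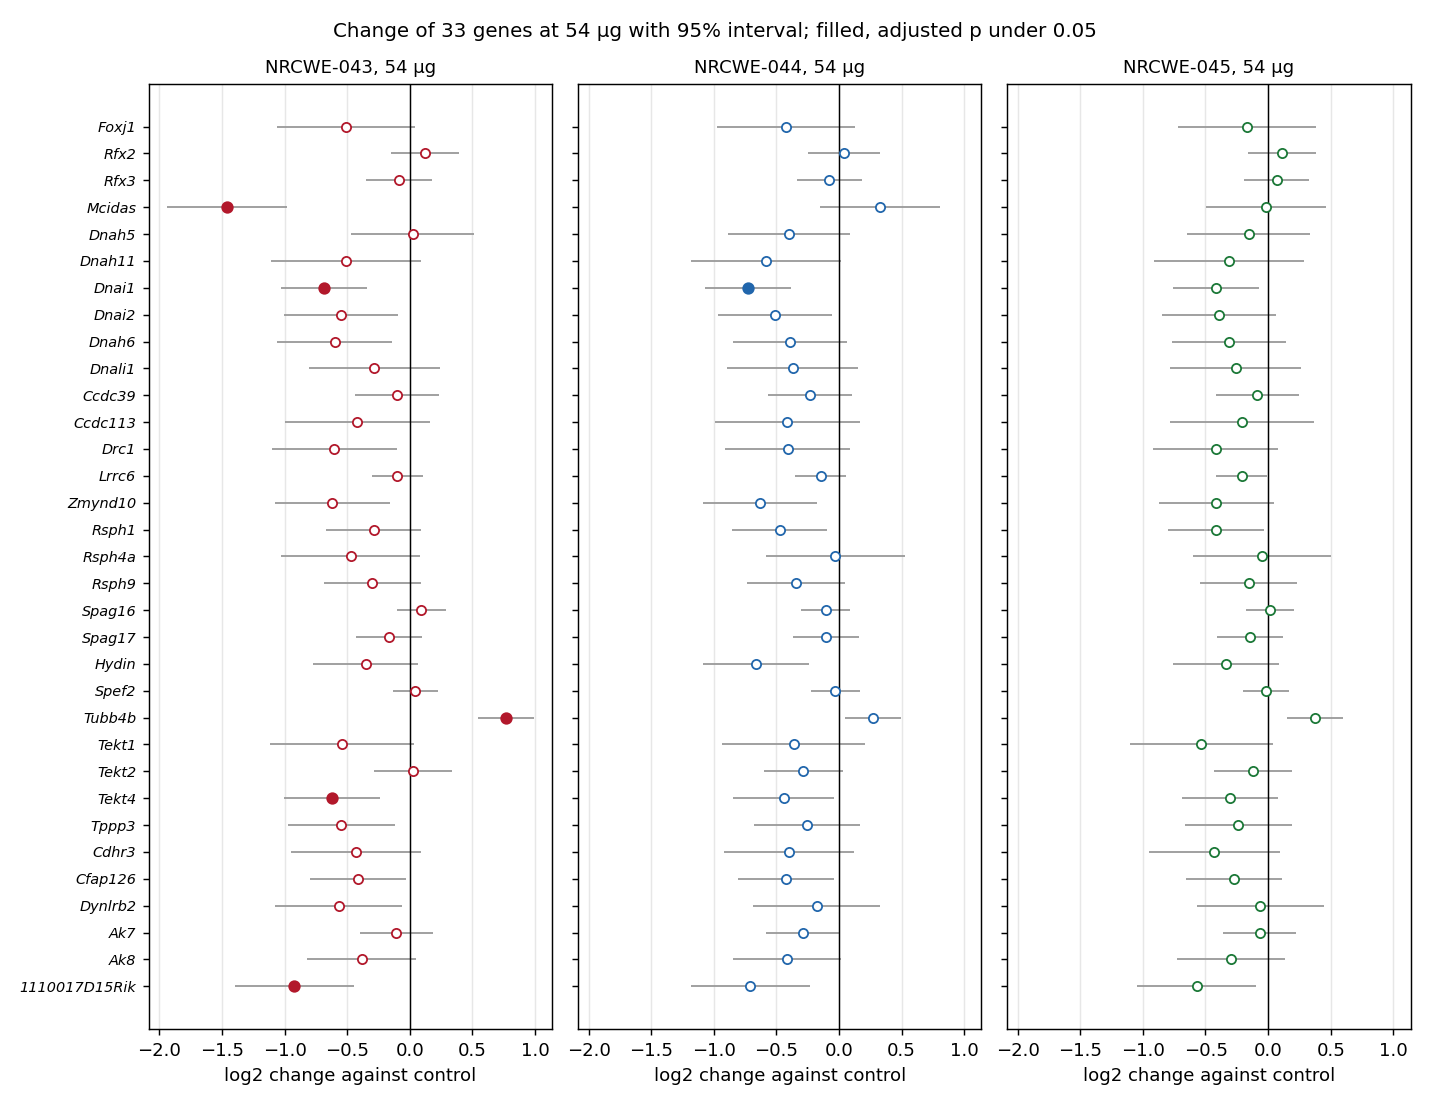
Change of each tested member against control at 54 µg, in log2 units on the horizontal axis, for the 3 materials, with 95% confidence intervals as bars and members ordered by role on the vertical axis. Most points lie left of 0, Mcidas lies at -1.46 for NRCWE-043 and near 0 for NRCWE-045, and Tubb4b lies right of 0 for all 3 materials.

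Few of these differences passed the test. With limma's moderated test and Benjamini-Hochberg adjustment over all features, 5 members passed an adjusted p of 0.05 under NRCWE-043 at 54 µg, 1 higher and 4 lower, where 10.2% of all features were called, 5.33% higher and 4.88% lower. Under NRCWE-044, 1 member passed, a lower one, where 5.95% of features were called and 2.02% were called lower. Under NRCWE-045, 0 members passed by limma, where 0.325% of features were called, and 5 had an unadjusted p under 0.05. The unadjusted counts were 12 for NRCWE-043 and 9 for NRCWE-044. The member shares were thus 5 of 33 against a background of 10.2%, 1 of 33 against 5.95% and 0 of 33 against 0.325%. The 5 arrays in each group limit the precision of all these counts. In whole lung RNA, fewer ciliated cells and less RNA per ciliated cell cannot be told apart.

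Groups that did not overlap with control were also few. Under NRCWE-043 at 54 µg, 6 members had no overlap with the controls, where 8.33% of all features did: Mcidas, Dnah11, Tubb4b, Tekt4, Tppp3 and 1110017D15Rik. Under NRCWE-044 at 54 µg there were 3, Dnai1, Tekt4 and 1110017D15Rik, where the share over all features was 6.63%. Under NRCWE-045 at 54 µg there were 0 members and 2.42% of features. A looser count asked on how many members all arrays of a group lay below the control mean. It gave 16 of 33 members for NRCWE-043 and 20 of 33 for NRCWE-044, against 18.3% and 15.1% of all features. For NRCWE-045 it gave 2 of 33, against 8.93%.

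**Figure D2:**
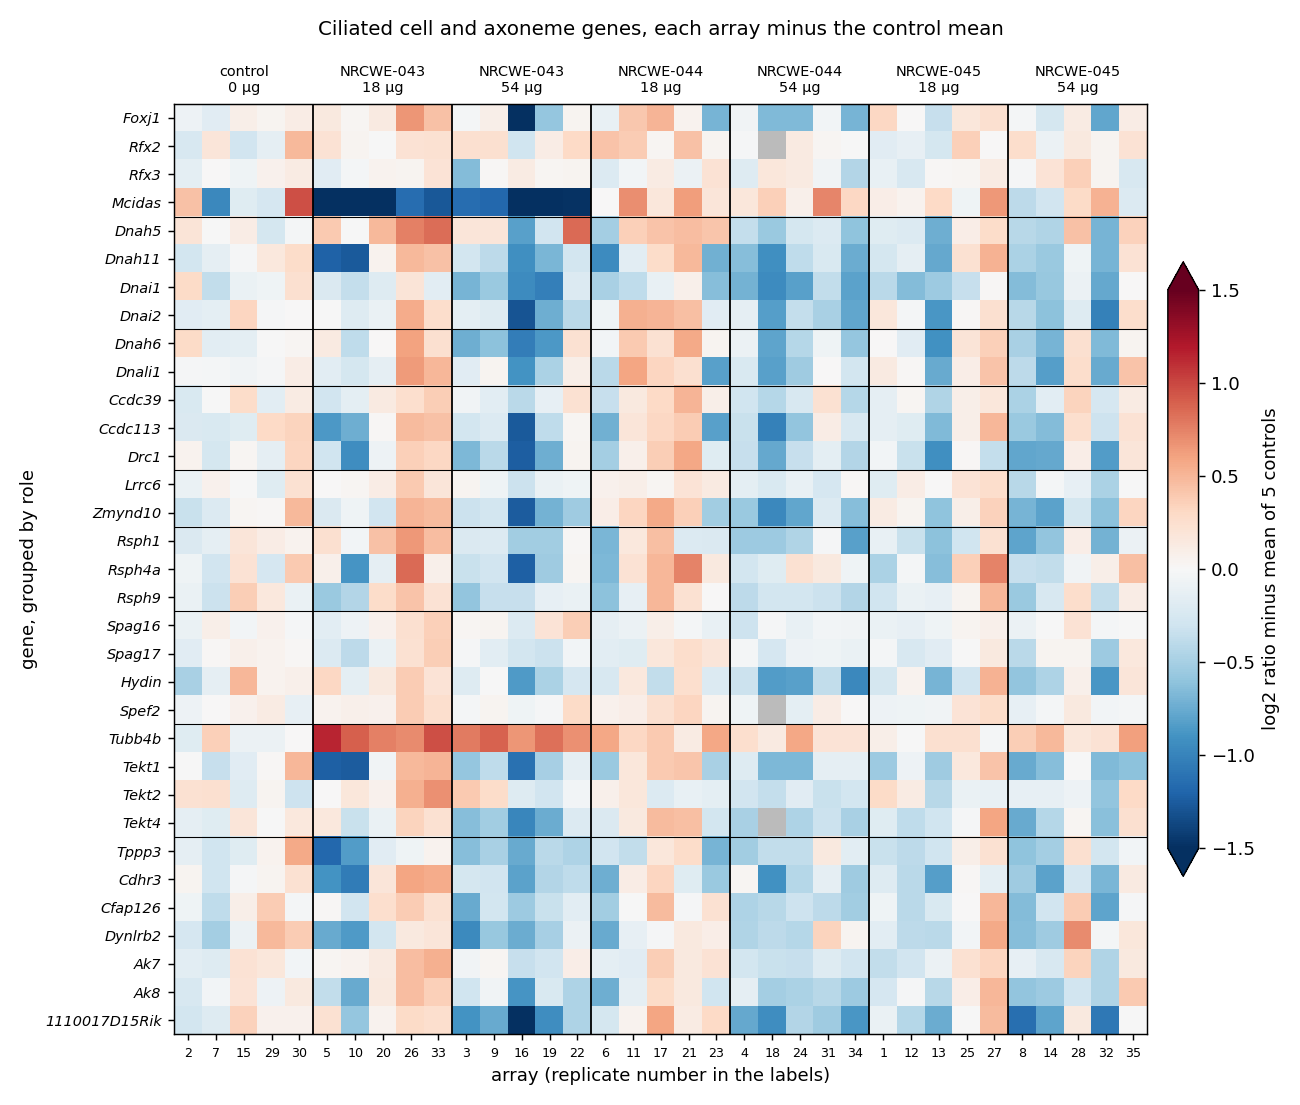
Level of each tested member on each of the 35 arrays, drawn as the log2 difference from the control mean of that gene, with colour clipped at 1.5 on either side and missing values in grey. Arrays are grouped by treatment and members by role, and the columns at 54 µg are mostly on the low side, apart from 2 arrays of NRCWE-045.

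Among the regulators, multicilin gave the lowest values relative to control of all members, and only with NRCWE-043. Mcidas is the coregulator that starts the multiciliated programme. Its control levels were 2.42, 1.01, 1.79, 1.72 and 2.94. With NRCWE-043 they were 0.28, 0.34, 0.44, 0.83 and 0.71 at 18 µg, and 0.83, 0.79, 0.34, 0.12 and 0.50 at 54 µg. All 10 NRCWE-043 arrays lay below the lowest control. Mcidas fell by 1.46 at 18 µg (SE 0.23, 95% interval -1.93 to -0.98, 2.74-fold, limma adjusted p = 0.000386) and by 1.46 at 54 µg (SE 0.23, 2.75-fold, adjusted p = 0.000125). NRCWE-044 arrays read 1.98, 2.67, 2.14, 2.61 and 2.16 at 18 µg, and 2.14, 2.33, 2.05, 2.71 and 2.29 at 54 µg. NRCWE-045 arrays read 2.07, 2.03, 2.27, 1.91 and 2.62 at 18 µg, and 1.58, 1.69, 2.26, 2.50 and 1.77 at 54 µg. These 20 arrays lay within the range of the controls, which was itself wide. Leaving out any single array kept both calls, with changes of -1.70 to -1.21 at 18 µg and -1.70 to -1.22 at 54 µg, the extremes being those without control replicate 7 and without control replicate 30. Within slides that also held a control, Mcidas differed by -1.43 and -1.35 at 18 µg and by -0.88 and -1.56 at 54 µg. The calls were lost when arrays were centred on their median in place of loess, with changes of -1.23 at 18 µg (adjusted p = 0.249) and -0.85 at 54 µg (adjusted p = 0.300). The call at 18 µg was also lost when only the 2 groups compared were fitted (-1.46, adjusted p = 0.0990). That fit called 0 of all features at 18 µg, where the main fit called 1069. Median centring called 54 of all features at 18 µg, and 525 in place of 2607 at 54 µg. Over the 16 alternative settings the adjusted p of Mcidas ranged from 1.02e-06 to 0.249 at 18 µg and from 7.86e-07 to 0.300 at 54 µg. Mcidas was represented by 1 probe, which was bright in both channels, with a median raw intensity of 17775 in Cy5 and 6786 in the reference, and was above background on all 35 arrays in each. The Foxj1 probe had 623 in Cy5 and 81 in the reference, and the Tubb4b probe 17560 and 20251.5. The identity of the Mcidas probe beyond its annotation was not tested.

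Foxj1, the transcription factor that directs motile cilium formation, did not pass the test in any comparison with control. Its control levels were 2.57, 2.48, 2.74, 2.68 and 2.76. At 54 µg they were 2.62, 2.73, 0.59, 2.06 and 2.69 with NRCWE-043, and 2.59, 1.98, 1.99, 2.60 and 1.94 with NRCWE-044. At 54 µg of NRCWE-045 they were 2.61, 2.38, 2.77, 1.87 and 2.75. A single NRCWE-043 array, replicate 16, stood far below the rest, and in each 54 µg group 1 or more arrays fell inside the control range. The Foxj1 changes at 54 µg were -0.51 (SE 0.27, adjusted p = 0.267), -0.42 (adjusted p = 0.420) and -0.17. Without NRCWE-043 replicate 16 the first of these was -0.12 (adjusted p = 0.811, against 0.105 to 0.745 over the other alternatives). At 18 µg the levels were 2.79, 2.68, 2.78, 3.31 and 3.08 with NRCWE-043, 2.53, 3.04, 3.16, 2.70 and 1.95 with NRCWE-044, and 2.96, 2.65, 2.30, 2.81 and 2.88 with NRCWE-045. Each 18 µg group of Foxj1 overlapped with the controls. Rfx2 and Rfx3, the RFX factors of the list, were dim, and the changes of their brightest probes at 54 µg lay between -0.09 and 0.12. A second probe of Rfx3 gave 0.18, 0.13 and 0.08 in the order NRCWE-043, NRCWE-044 and NRCWE-045.

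The outer dynein arm had the lowest role medians at 54 µg, with -0.53 for NRCWE-043, -0.55 for NRCWE-044 and -0.35 for NRCWE-045 over its 4 tested members. Dnai1, an intermediate chain that holds the arm together, was the only member that passed the test as lower than control with 2 materials. Tekt4 and 1110017D15Rik also lay wholly below the controls with NRCWE-043 and NRCWE-044 at 54 µg, but passed with NRCWE-043 only. Its control levels were 2.30, 1.65, 1.92, 1.95 and 2.25. At 54 µg Dnai1 read 1.32, 1.46, 1.06, 0.99 and 1.81 with NRCWE-043, and 1.31, 1.07, 1.20, 1.64 and 1.21 with NRCWE-044. All 5 arrays of NRCWE-044 lay below the lowest control, and 4 of the 5 of NRCWE-043 did. Dnai1 fell by 0.68 with NRCWE-043 (SE 0.17, 95% interval -1.03 to -0.34, 1.61-fold, adjusted p = 0.00784). It fell by 0.73 with NRCWE-044 (SE 0.17, 95% interval -1.07 to -0.38, 1.65-fold, adjusted p = 0.00735). With NRCWE-045 at 54 µg it read 1.36, 1.44, 1.93, 1.24 and 2.02, a change of -0.42 that did not pass. At 18 µg Dnai1 read 1.80, 1.65, 1.82, 2.21 and 1.85 with NRCWE-043, 1.53, 1.63, 1.90, 2.09 and 1.37 with NRCWE-044, and 1.60, 1.36, 1.47, 1.67 and 2.03 with NRCWE-045. All 3 of these groups overlapped with the controls. Both calls held without any single array, at -0.80 to -0.60 and -0.82 to -0.65. Within slides the difference was -0.65 and -0.89 for NRCWE-043, and -0.66, -0.85 and -0.60 for NRCWE-044. Both calls were lost with median centring (adjusted p = 0.347 and 0.753), and over the 16 alternatives their adjusted p reached down to 0.00341 and 0.00274. Median centring called 525 and 43 of all features in these comparisons, in place of 2607 and 1518.

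The other outer arm members varied more between arrays. Dnah5, a heavy chain that generates force, read 2.91, 2.72, 2.83, 2.46 and 2.70 in the controls. At 54 µg it read 2.91, 2.90, 1.91, 2.44 and 3.58 with NRCWE-043, 2.37, 2.17, 2.46, 2.52 and 2.12 with NRCWE-044, and 2.31, 2.27, 3.17, 2.03 and 3.07 with NRCWE-045. The NRCWE-043 and NRCWE-045 arrays of Dnah5 spread to both sides of the controls, while those of NRCWE-044 were no higher than 2.52, with changes of 0.02, -0.16 and -0.40 in that order, none of which passed. Leaving out 1 array moved the NRCWE-043 change from -0.19 (without replicate 22) to 0.23 (without replicate 16). At 18 µg Dnah5 read 3.12, 2.73, 3.21, 3.49 and 3.56 with NRCWE-043, 2.22, 3.09, 3.15, 3.19 and 3.14 with NRCWE-044, and 2.55, 2.52, 1.99, 2.83 and 3.00 with NRCWE-045. Each of these groups overlapped with the controls. Dnah11, another heavy chain, changed by -0.51, -0.58 and -0.31 at 54 µg in the order NRCWE-043, NRCWE-044 and NRCWE-045, and Dnai2, the second intermediate chain, by -0.55, -0.51 and -0.40. None of these passed against control.

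Genes of the inner arms, the links and the arm assembly machinery lay lower at 54 µg without passing the test. Dnah6, an inner arm heavy chain, changed by -0.60 with NRCWE-043 (adjusted p = 0.0851), by -0.39 with NRCWE-044 and by -0.31 with NRCWE-045. Dnali1, an inner arm light intermediate chain, changed by -0.28, -0.37 and -0.26. Drc1 of the nexin link changed by -0.60 (adjusted p = 0.121), -0.41 and -0.42. For Ccdc39, part of the ruler that spaces the arms, the values were -0.10, -0.23 and -0.09. Ccdc113, a coiled-coil protein of cilia, changed by -0.42, -0.41 and -0.21. Zmynd10, which helps assemble dynein arms in the cytoplasm, changed by -0.62 (adjusted p = 0.0763), -0.63 (adjusted p = 0.0959) and -0.41. Lrrc6, of the same machinery, changed by -0.10, -0.15 and -0.21, but it was above background on only 25 arrays.

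Radial spoke heads showed a lower median too, at -0.30, -0.34 and -0.16. Rsph1 read 1.40, 1.48, 1.80, 1.73 and 1.67 in the controls. At 54 µg Rsph1 read 1.40, 1.41, 1.09, 1.1 and 1.63 with NRCWE-043, 1.07, 1.08, 1.16, 1.60 and 0.80 with NRCWE-044, and 0.82, 1.03, 1.71, 0.90 and 1.53 with NRCWE-045. In each of these groups at least 2 arrays lay below the lowest control and at least 1 lay among the controls, and the changes of -0.29, -0.47 and -0.42 did not pass. At 18 µg Rsph1 read 1.85, 1.57, 2.05, 2.26 and 2.08 with NRCWE-043, 0.93, 1.77, 2.06, 1.41 and 1.40 with NRCWE-044, and 1.5, 1.29, 1.00, 1.32 and 1.84 with NRCWE-045. NRCWE-043 arrays of Rsph1 at 18 µg thus lay mostly above the controls, with a change of 0.35 that did not pass. Rsph4a changed by -0.47 with NRCWE-043 at 54 µg, and by -0.03 and -0.05 with the others, while Rsph9 changed by -0.30, -0.34 and -0.16. A second probe of Rsph4a gave -0.29, -0.22 and -0.23, so its probes did not set NRCWE-043 apart alike.

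The central pair had role medians of -0.06, -0.11 and -0.08 over 4 genes, of which Spag16, Spag17 and Spef2 were above background on 15 to 17 of the 35 arrays. The changes of these 3 at 54 µg lay between -0.16 and 0.09. Hydin, a giant central pair protein, was the brighter member. It changed by -0.35 with NRCWE-043, by -0.66 with NRCWE-044 (adjusted p = 0.0524) and by -0.34 with NRCWE-045. A second probe of Hydin gave smaller changes of -0.07, -0.19 and -0.26 (limma adjusted p = 0.850, 0.538 and 0.670 over all probes).

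Among the microtubule proteins, the beta-tubulin Tubb4b was the 1 member of the whole list that passed the test as higher than control. Tubb4b is a building block of microtubules in axonemes and elsewhere. Its control levels were -0.06, 0.48, 0.03, 0.03 and 0.12. With NRCWE-043 they were 1.26, 1.02, 0.87, 0.83 and 1.08 at 18 µg, and 0.90, 1.00, 0.78, 0.94 and 0.81 at 54 µg. All 10 of these arrays exceeded the highest control. Tubb4b rose by 0.89 at 18 µg (SE 0.11, 95% interval 0.67 to 1.12, 1.86-fold, adjusted p = 1.06e-05) and by 0.77 at 54 µg (SE 0.11, 95% interval 0.55 to 0.99, 1.70-fold, adjusted p = 3.76e-05). NRCWE-044 arrays read 0.70, 0.43, 0.52, 0.24 and 0.70 at 18 µg, and 0.37, 0.26, 0.69, 0.33 and 0.32 at 54 µg. NRCWE-045 arrays read 0.21, 0.12, 0.36, 0.36 and 0.09 at 18 µg, and 0.49, 0.61, 0.29, 0.33 and 0.74 at 54 µg. These 4 groups overlapped with the controls, mostly through control replicate 7 at 0.48, and their changes of 0.40 and 0.27 with NRCWE-044 and of 0.11 and 0.37 with NRCWE-045 did not pass. The NRCWE-043 calls held without any single array, at 0.83 to 0.98 and 0.72 to 0.86. Within slides Tubb4b differed by 1.05 and 0.84 at 18 µg, and by 0.70 and 0.83 at 54 µg. At 54 µg the call held under all 16 alternative settings, with adjusted p from 3.28e-06 to 0.0428. At 18 µg it was lost with median centring (adjusted p = 0.378) and when only the 2 groups compared were fitted (adjusted p = 0.0990), over a range of 8.79e-07 to 0.378. Those 2 settings called 54 and 0 of all features at 18 µg, in place of 1069.

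Tektins are filaments that stiffen the doublet microtubules, and Tekt4 was the 1 of them that passed the test. Its control levels were 2.44, 2.40, 2.76, 2.57 and 2.74. At 54 µg Tekt4 read 1.94, 2.06, 1.60, 1.83 and 2.37 with NRCWE-043, and 2.09, 2.11, 2.26 and 2.10 with NRCWE-044, where replicate 18 had no value and the fit used 4 arrays. Both groups lay wholly below the controls. Tekt4 fell by 0.62 with NRCWE-043 (SE 0.19, 95% interval -1.0 to -0.24, 1.54-fold, adjusted p = 0.0285) and changed by -0.44 with NRCWE-044 (adjusted p = 0.208). With NRCWE-045 at 54 µg it read 1.83, 2.16, 2.62, 1.96 and 2.82, on both sides of the controls. At 18 µg Tekt4 read 2.74, 2.25, 2.48, 2.92 and 2.81 with NRCWE-043, 2.37, 2.73, 3.06, 3.03 and 2.31 with NRCWE-044, and 2.40, 2.20, 2.28, 2.56 and 3.18 with NRCWE-045, all overlapping with the controls. The NRCWE-043 call was lost when any 1 of several arrays was left out, while the change stayed at -0.73 to -0.53. These were NRCWE-043 replicates 3, 16 and 19 at 54 µg and control replicates 15 and 30, at adjusted p of 0.0512 to 0.0898. Within slides Tekt4 differed by -0.48 and -1.04. The call was also lost with median centring (adjusted p = 0.613), scale normalization (0.0868) and the slide as a fixed term (0.0659), over a range of 0.00553 to 0.613. Median centring called 525 of all features, in place of 2607.

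Tekt1 and Tekt2 did not pass. Tekt1 read 3.54, 3.20, 3.38, 3.57 and 4.04 in the controls. At 54 µg Tekt1 read 2.96, 3.16, 2.43, 3.04 and 3.42 with NRCWE-043, 3.36, 2.88, 2.88, 3.41 and 3.41 with NRCWE-044, and 2.80, 2.91, 3.54, 2.89 and 2.93 with NRCWE-045. Each of these groups had arrays below the lowest control and at least 1 above it, with changes of -0.54, -0.36 and -0.53. At 18 µg Tekt1 read 2.33, 2.30, 3.49, 4.03 and 4.06 with NRCWE-043, 3.00, 3.71, 3.94, 3.96 and 3.06 with NRCWE-044, and 3.01, 3.47, 3.02, 3.71 and 3.98 with NRCWE-045. The 2 lowest of these, NRCWE-043 replicates 5 and 10, lay more than a log2 unit below the other 3 arrays of their group. Tekt2 changed by 0.03, -0.28 and -0.12 at 54 µg.

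All 7 members with other roles lay below control at 54 µg under each material, with medians of -0.43, -0.40 and -0.27. The gene known by its clone name 1110017D15Rik was the 1 of them that passed the test. Its control levels were 3.90, 3.97, 4.52, 4.23 and 4.23. At 54 µg 1110017D15Rik read 3.27, 3.42, 2.61, 3.24 and 3.71 with NRCWE-043, and 3.40, 3.23, 3.74, 3.64 and 3.30 with NRCWE-044. All 10 arrays lay below the lowest control. It fell by 0.92 with NRCWE-043 (SE 0.23, 95% interval -1.40 to -0.45, 1.89-fold, adjusted p = 0.00930) and changed by -0.71 with NRCWE-044 (adjusted p = 0.0673). At 54 µg of NRCWE-045 it read 3.04, 3.38, 4.31, 3.09 and 4.16, where replicates 28 and 35 lay among the controls and the other 3 lay below. At 18 µg 1110017D15Rik read 4.39, 3.59, 4.22, 4.46 and 4.42 with NRCWE-043, 3.90, 4.23, 4.76, 4.30 and 4.47 with NRCWE-044, and 4.07, 3.74, 3.43, 4.16 and 4.64 with NRCWE-045, all overlapping with the controls. The NRCWE-043 call held without any single array (-1.04 to -0.76), and within slides the difference was -0.66 and -1.59. A second probe of the gene gave -0.82 with NRCWE-043 (adjusted p = 0.134 over all probes) and -0.74 with NRCWE-044. The NRCWE-043 call was lost with median centring (adjusted p = 0.509), which called 525 of all features in place of 2607. It was also lost with scale normalization (0.0642), over a range of 0.00537 to 0.509. The NRCWE-044 difference passed with the deposited values (adjusted p = 0.0444) and with the slide as a random block (0.0287) or fixed term (0.0361). It also passed with array weights (0.0366) and in the fit of 2 groups (0.0101), over a range of 0.0101 to 1.0.

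Tppp3, a tubulin polymerization-promoting protein that is abundant in ciliated cells, read 5.19, 5.02, 5.14, 5.38 and 5.90 in the controls. At 54 µg Tppp3 read 4.68, 4.84, 4.57, 4.92 and 4.86 with NRCWE-043, 4.80, 4.96, 4.95, 5.47 and 5.17 with NRCWE-044, and 4.72, 4.81, 5.57, 5.05 and 5.28 with NRCWE-045. The NRCWE-043 arrays lay wholly below the controls and the other groups overlapped with them, with changes of -0.55 (adjusted p = 0.0956), -0.26 and -0.24. At 18 µg Tppp3 read 4.15, 4.49, 5.15, 5.26 and 5.38 with NRCWE-043, 5.03, 4.95, 5.49, 5.60 and 4.63 with NRCWE-044, and 5.00, 4.94, 5.03, 5.42 and 5.55 with NRCWE-045. All 3 of these groups overlapped with the controls, and NRCWE-043 replicates 5 and 10 were again the lowest. The remaining members at 54 µg, in the order NRCWE-043, NRCWE-044 and NRCWE-045, changed as follows without passing. Cdhr3, a cadherin of ciliated airway cells, changed by -0.43, -0.40 and -0.43. Cfap126, a cilium and basal body protein also called Flattop, changed by -0.41, -0.42 and -0.27. Dynlrb2, a roadblock-type dynein light chain, changed by -0.57, -0.18 and -0.06. The adenylate kinases Ak7 and Ak8, which handle nucleotides in the axoneme, changed by -0.11, -0.29 and -0.07 for Ak7 and by -0.39, -0.42 and -0.29 for Ak8.

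At 18 µg Mcidas and Tubb4b were the 2 members that passed the test against control, both with NRCWE-043. With NRCWE-043 1 member passed higher and 1 lower, where 4.19% of all features were called, 1.35% higher and 2.84% lower, and 13 of 33 members were below control with a median of 0.06. With NRCWE-044 and NRCWE-045, 0 members passed by limma, where 0% of features were called, and 1 member in each had an unadjusted p under 0.05. The medians were 0.03, with 13 of 33 below control, and -0.06, with 27 of 33 below control. Over all features 49.9%, 56.6% and 46.0% were below control in the order NRCWE-043, NRCWE-044 and NRCWE-045. The NRCWE-045 arrays at 18 µg thus had as many members below control as the NRCWE-043 arrays at 54 µg, at a smaller median. No overlap with the controls was seen for 2 members with NRCWE-043, where 2.95% of features had none, and for 0 members with NRCWE-044 and NRCWE-045, where the shares were 0.944% and 0.466%.

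The step from 18 µg to 54 µg compares arrays of the same material and uses no control, so the 3 steps share no arrays. In each of them nearly all members were lower at the higher dose: 32 of 33 for NRCWE-043, 33 of 33 for NRCWE-044 and 28 of 33 for NRCWE-045, with medians of -0.31, -0.35 and -0.13. Over all features, 47.6%, 43.7% and 50.2% were lower, and the medians lay between -0.00 and 0.03. Counted across the steps, 28 of the 33 members (84.8%) were lower in all 3 of them, against 5475 of 25534 features (21.4%), and 0 members were higher in all 3, against 26.1% of features. For NRCWE-043, 1 member passed, a lower one, where 1.16% of features were called and 0.239% were called lower. For NRCWE-044, 3 members passed, all lower, where 6.52% were called and 1.6% were called lower. For NRCWE-045, 0 passed by limma, where 0% were called, and 2 members had an unadjusted p under 0.05. Groups did not overlap for 0, 5 and 0 members, where the shares over all features were 3.08%, 4.88% and 0.967%. The 5 members were Dnah6, Lrrc6, Tekt4, Ak7 and 1110017D15Rik with NRCWE-044.

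The members that passed the test between the doses were 1110017D15Rik with 2 materials, and Zmynd10 and Dnai2 with NRCWE-044. The gene 1110017D15Rik fell by 0.97 with NRCWE-043 (SE 0.23, adjusted p = 0.0340) and by 0.87 with NRCWE-044 (adjusted p = 0.0184). Zmynd10 read 1.95, 2.17, 2.42, 2.21 and 1.33 at 18 µg and 1.29, 0.89, 1.07, 1.65 and 1.21 at 54 µg, and it fell by 0.80 (SE 0.23, adjusted p = 0.0261). Dnai2 read 1.66, 2.25, 2.23, 2.17 and 1.55 at 18 µg and 1.59, 0.90, 1.36, 1.24 and 0.94 at 54 µg, and it fell by 0.76 (SE 0.22, adjusted p = 0.0325). The 2 doses overlapped for both genes through NRCWE-044 replicate 23 at 18 µg. Each of these 4 calls was lost when any 1 of several arrays was left out, while the change kept its direction. Without 1 array, 1110017D15Rik changed by -1.13 to -0.81 with NRCWE-043 and by -0.98 to -0.76 with NRCWE-044. Zmynd10 changed by -0.97 to -0.70 and Dnai2 by -0.87 to -0.69. With NRCWE-043, that of 1110017D15Rik was lost without replicate 5 or 26 at 18 µg and without 9, 16 or 19 at 54 µg. With NRCWE-044 it was lost without replicate 17 at 18 µg and without 18 or 34 at 54 µg. The Zmynd10 call was lost without replicate 11, 17 or 21 at 18 µg and without 18, 24 or 34 at 54 µg, and the Dnai2 call without 11, 17 or 21 and without 18 or 34. The adjusted p without 1 array reached 0.170, 0.0620, 0.0791 and 0.104 in these 4 cases. The Dnai2 call was also lost with the slide as a fixed term (-0.71, adjusted p = 0.0592), with scale normalization (-0.67, 0.100) and with median centring (-0.78, 0.363), over a range of 0.00585 to 0.363. The other 3 calls were lost with median centring too, at adjusted p of 0.739, 0.862 and 0.776. Median centring called 6 of all features in the NRCWE-043 step and 83 in the NRCWE-044 step, in place of 295 and 1664. Both calls of 1110017D15Rik were lost with scale normalization and with the mean over probes, and those with NRCWE-043 and of Zmynd10 in the fit of 2 groups (0.0854 and 0.0547).

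Between materials at the same dose, 6 pairs were compared and only Mcidas and Tubb4b passed the test, both between NRCWE-043 and the others. At 18 µg Mcidas was higher by 1.79 with NRCWE-044 (SE 0.23, adjusted p = 4.39e-06) and by 1.66 with NRCWE-045 (SE 0.23, adjusted p = 1.29e-05) than with NRCWE-043. At 54 µg it was higher by 1.79 (SE 0.23, adjusted p = 2.67e-06) and by 1.44 (SE 0.23, adjusted p = 0.000102). In all 4 pairs every Mcidas array of NRCWE-043 lay at or below 0.83 and every array of the other material at or above 1.58. Tubb4b was lower with NRCWE-044 and NRCWE-045 than with NRCWE-043, with differences of -0.50 (adjusted p = 0.00246) and -0.79 (adjusted p = 1.05e-05) at 18 µg. At 54 µg they were -0.49 (adjusted p = 0.00239) and -0.40 (adjusted p = 0.0239), each with an SE of 0.11. The Tubb4b call between NRCWE-045 and NRCWE-043 at 54 µg was lost without NRCWE-043 replicate 3, 9 or 19 or NRCWE-045 replicate 28 or 32, and also with the slide as a fixed term (-0.37, adjusted p = 0.0851, over a range of 0.00429 to 0.575). These 2 members were all that passed in the 4 pairs, where 10.9% and 8.52% of features were called at 18 µg and 7.6% and 5.39% at 54 µg. Over all features 6.65%, 8.25%, 9.05% and 7.28% had no overlap in these pairs. With median centring none of the 8 differences passed, at adjusted p of 0.0655 to 0.575, with the same directions. At 18 µg it called 518 and 374 of all features, in place of 2794 and 2176. At 54 µg it called 851 and 529, in place of 1940 and 1377. Mcidas then differed by 1.35 and 1.31 at 18 µg and by 1.13 and 1.0 at 54 µg, and Tubb4b by -0.75, -0.90, -0.93 and -0.64 in the same order.

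**Figure D3:**
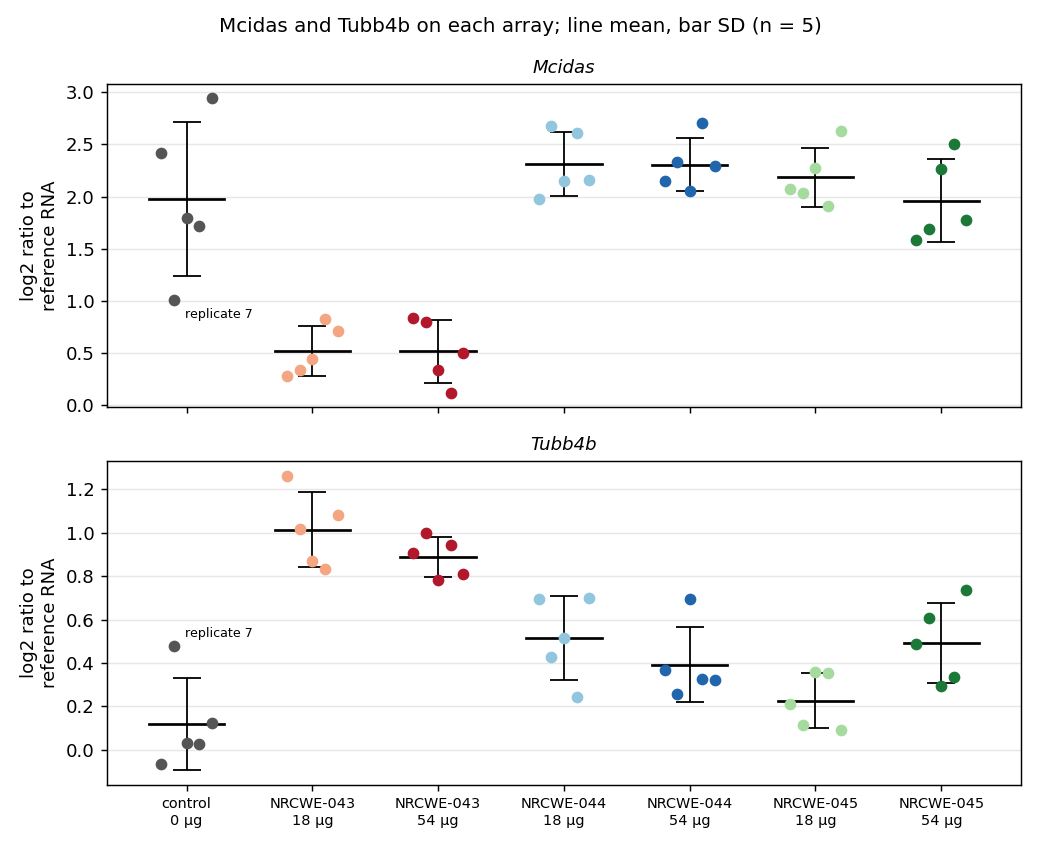
Log2 ratio of lung to reference RNA of Mcidas and Tubb4b on each array, by group, with points for arrays, and the group mean with its SD (n = 5) as a line with error bars. The NRCWE-043 arrays lie at or below 0.83 for Mcidas and at or above 0.78 for Tubb4b, outside the control range in both cases.

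NRCWE-044 and NRCWE-045 were not separated by any member. In that pair 0 members passed by limma at 18 µg, where 0.45% of features were called and 2 members had an unadjusted p under 0.05. At 54 µg 0 members passed, where 0% of features were called and 0 members had an unadjusted p under 0.05. NRCWE-045 differed from NRCWE-044 in Mcidas by -0.13 (95% interval -0.61 to 0.35) at 18 µg and by -0.34 (-0.82 to 0.13) at 54 µg. In Tubb4b the difference was -0.29 (-0.51 to -0.07, adjusted p = 0.248) at 18 µg and 0.10 (-0.12 to 0.32) at 54 µg. These intervals leave room for differences of up to 0.82, so they do not show that the materials acted alike on these genes.

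A mean per array over the 30 tested members with a value on every array shows how the arrays of a group scattered. It was 2.20 ± 0.13 in the controls (SD, n = 5, range 2.03 to 2.38). At 18 µg it was 2.21 ± 0.35, 2.23 ± 0.26 and 2.13 ± 0.27 (SD, n = 5 each) in the order NRCWE-043, NRCWE-044 and NRCWE-045. At 54 µg it was 1.83 ± 0.27, 1.88 ± 0.15 and 1.98 ± 0.31 (SD, n = 5 each). NRCWE-045 at 54 µg was split between replicates 8, 14 and 32 at 1.74, 1.80 and 1.72, and replicates 28 and 35, both at 2.32. Those 2 arrays had 10 members each below the control mean, and the other 3 had 31, 30 and 28. No p is given for this mean, because the list was chosen with results of these data known.

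**Figure D4:**
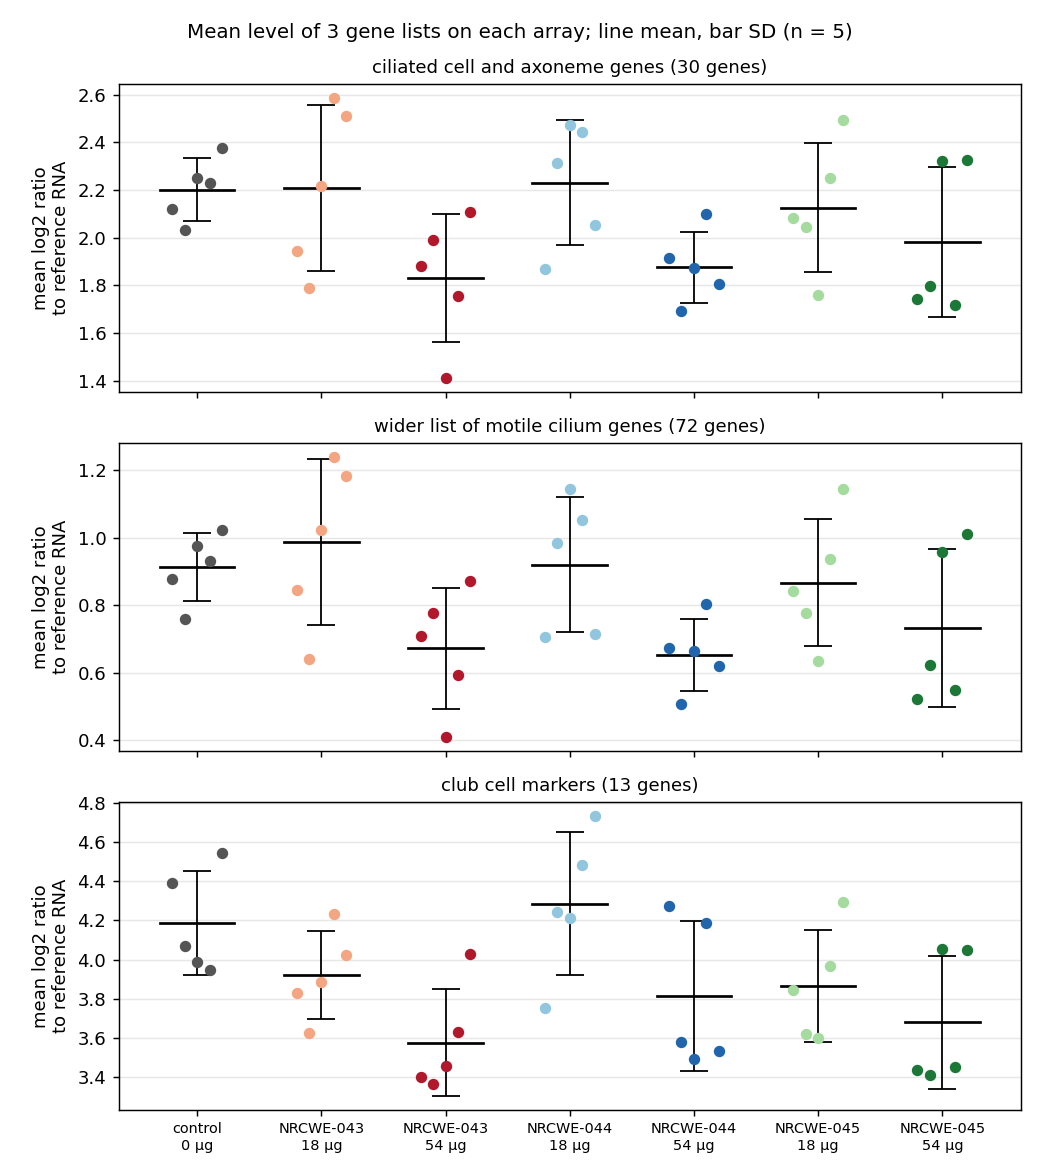
Mean log2 ratio per array of the listed members, of a wider list of cilium genes and of club cell markers, by group, with points for arrays, and the group mean with its SD (n = 5) as a line with error bars. At 54 µg the member means of NRCWE-043 and NRCWE-044 lie at 1.83 and 1.88, below the control mean of 2.20, and the club cell markers lie lower as well.

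A wider list of 72 tested cilium genes outside the members mostly lay below control as well. At 54 µg 58, 60 and 60 of the 72 were below control in the order NRCWE-043, NRCWE-044 and NRCWE-045, with medians of -0.19, -0.26 and -0.21. The parts of the list differed. Of its 54 axoneme genes, 50, 50 and 48 were below control. Of 12 multiciliation genes, 6, 7 and 9 were below, with medians of -0.00, -0.06 and -0.22. Of 6 arm assembly genes, 2, 3 and 3 were below, with medians of 0.06, -0.06 and -0.01. With NRCWE-043 6 of them fell and 1 rose, and those with the smallest adjusted p were Cfap74 at -0.67 (adjusted p = 0.00801), Cfap69 at -0.52 (0.00966) and Iqcg at -0.70 (0.0133). With NRCWE-044 3 fell: Spef1 at -0.39 (0.0127), Myb at -0.67 (0.0254) and Cfap161 at -0.68 (0.0359). With NRCWE-045 0 of the 72 passed by limma, and 6 had an unadjusted p under 0.05. Of all features, 10.2%, 5.95% and 0.325% were called in these 3 comparisons, higher or lower. Those called lower made up 4.88% with NRCWE-043 and 2.02% with NRCWE-044. Genes shared by primary and motile cilia were read beside these lists, and the difference between lists was not tested. Intraflagellar transport, the cargo system of all cilia, had medians of -0.05, -0.11 and -0.04 over 22 genes, with 1, 3 and 0 falling by limma and 5, 5 and 2 at an unadjusted p under 0.05. The Bardet-Biedl group, which sorts membrane proteins into cilia, had medians of -0.05, -0.10 and -0.05 over 20 genes. By limma 0, 1 and 0 of them fell, Bbs9 with NRCWE-044, and 0, 1 and 1 had an unadjusted p under 0.05.

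Markers of club cells, the secretory neighbours of ciliated cells, were also lower at 54 µg. Of 13 tested, 7 fell with NRCWE-043, 2 with NRCWE-044 and 0 with NRCWE-045 (3 at an unadjusted p under 0.05), with medians of -0.53, -0.19 and -0.39. The share of all features called, higher or lower, was 10.2%, 5.95% and 0.325% in that order. The share called lower was 4.88% with NRCWE-043 and 2.02% with NRCWE-044. Their array mean was 4.19 in the controls (range 3.95 to 4.55), and 3.58 (3.37 to 4.03), 3.81 (3.49 to 4.27) and 3.68 (3.41 to 4.05) at 54 µg. In NRCWE-045 replicates 28 and 35 again stood above the other 3 arrays, at 4.05 against at most 3.45. Of 14 general epithelial markers, 0 were called by limma at 54 µg (2, 2 and 0 at an unadjusted p under 0.05), with medians of 0.05, 0.03 and 0.02. The part of the club cell markers in the members' result was not tested.

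Markers of inflammatory cells also differed from control at 54 µg. The share of all features called there was 10.2% with NRCWE-043, 5.95% with NRCWE-044 and 0.325% with NRCWE-045, higher or lower. Of those calls, 52.2%, 65.9% and 89.2% were higher. Of 12 neutrophil markers, 5 rose and 1 fell with NRCWE-043 at 54 µg (median 0.62), 2 rose with NRCWE-044 (median 0.44) and 0 passed by limma with NRCWE-045 (median 0.19, 3 at an unadjusted p under 0.05). Their array mean ranged from 0.52 to 1.84 in the controls, and from 1.53 to 1.82, 1.32 to 2.20 and 0.91 to 2.10 at 54 µg. Of 12 macrophage markers, 2 rose and 2 fell with NRCWE-043 (median 0.54), 4 rose with NRCWE-044 (median 0.48) and 0 passed with NRCWE-045 (median 0.28, 2 at an unadjusted p under 0.05). Over the 11 of them with a value on every array, the mean ranged from 3.26 to 3.64 in the controls, and from 3.42 to 3.75, 3.56 to 3.99 and 3.51 to 3.78 at 54 µg. The part of these cells in the members' levels was not tested.

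Heart muscle markers, 11 genes that lung taken with its large veins can carry, varied widely between arrays of the same group. Their mean ranged from -0.27 to 2.87 in the controls, from -0.15 to 1.81 with NRCWE-043 at 54 µg, from -0.10 to 2.41 with NRCWE-044 and from -0.17 to 2.40 with NRCWE-045. It reached 1 on 11 of 35 arrays, of which 2 were controls and 1, 3 and 1 were the 54 µg groups in that order. The members' mean on those arrays against the others was 2.17 and 2.22 in the controls, 1.41 and 1.93 for NRCWE-043, 1.80 and 1.99 for NRCWE-044, and 1.72 and 2.05 for NRCWE-045. Without those 11 arrays, a choice made after seeing the data, 2 members were called with NRCWE-043 at 54 µg, Mcidas and Tubb4b, and 0 with NRCWE-044. The counts over all features were 1663 and 191, in place of 2607 and 1518. Dnai1 then changed by -0.54 and -0.52 (adjusted p = 0.126 and 0.454), 1110017D15Rik by -0.83 (0.0638) and Tekt4 by -0.58 (0.126). Adipose markers, over 9 genes, spread from 0.90 to 1.76 in the controls and from 0.38 to 3.97, 0.47 to 4.72 and 0.34 to 1.00 at 54 µg. The part of either tissue in the members' levels was not tested.

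Slides also moved with the members' levels. On slide 1, which held 8 arrays of all kinds, 18 to 31 members lay below the control mean, and its own 2 controls had 26 and 25 below. The median of the members' array mean was 1.93, 2.02, 1.78, 2.18, 2.32, 2.10 and 2.32 on slides 1 to 7. Groups were spread unevenly over them. NRCWE-043 arrays at 54 µg lay on slides 1 to 4 only, and controls on slides 1, 3, 5 and 6. NRCWE-045 replicates 28 and 35 at 54 µg lay on slides 5 and 7. Within slides that held a control, the median difference of the members at 54 µg was -0.07 and -0.64 for NRCWE-043, and -0.13, -0.65 and -0.23 for NRCWE-044. For NRCWE-045 it was -0.35, -0.47, 0.08 and -0.69. The direction was below 0 on all slides for NRCWE-043 and NRCWE-044, and on 3 of 4 for NRCWE-045, with 1 or 2 controls behind each value.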

How the data were processed

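Lung RNA (Cy5) and reference RNA (Cy3) were hybridised in the same orientation on all 35 two-colour arrays. Per the file headers, spot intensities were extracted with Feature Extraction 11.0.1.1. The scanner's log10 ratio, deposited in the same files, was not used for any value. The authors deposited log2 ratios as well, with no statement on their normalization in the labels, and these correlated at 0.995 to 0.999 with the ratios used and had column medians of -0.04 to 0.02. Here limma (3.58.1, in R 4.3.3 with the package data.table, version 1.17.8) corrected the median spot intensities by normexp with an offset of 50 and fitted a loess curve to each array. Spots that the scanner software marked, either for uneven pixels or for standing apart from their replicate spots, were dropped, leaving 1403 probe values missing. Testing needed Cy5 signal well over background on 3 or more of the 5 arrays in any group, which kept 34326 of 55681 probes. Unversioned RefSeq accessions gave symbols to 27235 probes. Of several probes for a gene the brightest was used, giving 25534 features. A single model of all 35 arrays (lmFit, eBayes) supplied 15 comparisons, each with Benjamini-Hochberg adjustment, and an adjusted p under 0.05 was called. The scripts were tested on simulated data. Figures used Python 3.11.15 and matplotlib 3.10.9.

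All members are accounted for, and every array value is given for members called against control and for Foxj1, Mcidas, Dnah5, Rsph1, Tekt1, Tppp3 and Tubb4b. Genes outside the members are limited to 3 per list and comparison, by adjusted p. Members and gene lists were chosen with earlier results of these data known. Alternatives changed the background correction, normalization, channel, filter, probe choice, slide term, variance model, arrays and groups fitted.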

Additional observations from a re-analysis of the deposited data

Results flagged for a closer look

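Of 91 sets of 5 or fewer values examined for an array standing apart from the rest of its group, 6 held such an array, and chance alone marks about 1 set in 20. The gene 1110017D15Rik read 3.59 on NRCWE-043 replicate 10 at 18 µg, where the other arrays read 4.22 to 4.46. Dnah5 read 2.22 on NRCWE-044 replicate 6 at 18 µg, against 3.09 to 3.19. Dnai2 read 0.85 on NRCWE-045 replicate 13 at 18 µg, against 1.69 to 1.96. Tekt1 read 3.54 on NRCWE-045 replicate 28 at 54 µg, against 2.80 to 2.93. Tekt4 read 2.26 on NRCWE-044 replicate 31 at 54 µg, against 2.09 to 2.11 on the 3 other arrays with a value. Tubb4b read 0.69 on NRCWE-044 replicate 24 at 54 µg, against 0.26 to 0.37.

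The response of Mcidas and Tubb4b differed between materials at the same dose by limma's test of the difference itself. For Mcidas, NRCWE-044 and NRCWE-045 stood above NRCWE-043 by 1.79 and 1.66 at 18 µg, and by 1.79 and 1.44 at 54 µg, with 5 of 5 arrays on the high side in each pair. For Tubb4b they stood below NRCWE-043, at -0.50 and -0.79 for 18 µg and -0.49 and -0.40 for 54 µg.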

How the results depend on the processing

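No paired analysis was possible because the replicate numbers in the labels are all different, so groups share none. Over 16 alternatives the median change of the members moved by less than the SD between arrays of a group (0.248), ranging from -0.49 to -0.20 for NRCWE-043 at 54 µg, -0.47 to -0.26 for NRCWE-044 and -0.35 to -0.15 for NRCWE-045, and no member named here reversed in a called comparison. Counts of called members moved, and so did the counts over all features. Median centring took the latter from 1069 to 54 (NRCWE-043, 18 µg), from 2607 to 525 (NRCWE-043, 54 µg) and from 1518 to 43 (NRCWE-044, 54 µg). In the dose steps it took them from 295 to 6 (NRCWE-043) and from 1664 to 83 (NRCWE-044). With median centring in place of loess they were 0 and 1 for NRCWE-043 at 18 and 54 µg, 0 for NRCWE-044 at 54 µg, 0 in both dose steps and 0 in the 4 pairs with NRCWE-043; the median of all features then moved to 0.12 for NRCWE-043 at 54 µg, and the share of higher calls went from 32.2% to 13.0% (NRCWE-043, 18 µg), from 52.2% to 66.9% (NRCWE-043, 54 µg) and from 65.9% to 95.3% (NRCWE-044, 54 µg). That last share was 54.2% with Cy5 alone and 53.6% with the deposited values. For NRCWE-043 at 54 µg the member count was 3 with scale normalization, 9 with Cy5 alone and 8 in the fit of 2 groups. Those settings called 2606, 2036 and 2476 of all features, against 2607 in the main fit. At 18 µg the fit of 2 groups called 0 members and 0 of all features. For NRCWE-044 at 54 µg the member count was 2 without background subtraction, with scale normalization, with Cy5 alone and with the filter on all 5 arrays. Those settings called 1557, 1330, 1225 and 1612 of all features, against 1518 in the main fit. The member count was 3 with the deposited values, the slide as fixed term and array weights, which called 1663, 2291 and 2313. With the slide as random block it was 4 (2305 of all features), and in the fit of 2 groups 7 (1545). For NRCWE-045 at 54 µg it was 1 with array weights (Tubb4b, 0.39), which called 343 of all features against 83 in the main fit. For the NRCWE-043 dose step the member count was 0 with scale normalization, the mean over probes and the fit of 2 groups. Those settings called 437, 251 and 28 of all features, against 295 in the main fit. The member count was 2 with deposited values (351 of all features) and the slide as fixed term (678). It was 3 with the slide as random block (699), and 9 with Cy5 alone (770) and array weights (638). For the NRCWE-044 dose step the member count was 1 with scale normalization, which called 1409 of all features against 1664 in the main fit. It was 5 with deposited values (1623) and with the slide as fixed term (2076) or random block (2261). It was 11 with Cy5 alone (1895) and array weights (2665). Between NRCWE-045 and NRCWE-043 the member count at 18 µg was 4 with the slide as random block and 6 with array weights. Those settings called 3304 and 2822 of all features, against 2176 in the main fit. At 54 µg it was 1 with the slide as fixed term, which called 1100 against 1377. The 11 arrays with heart muscle markers were also left out, a choice made after seeing the data. The member counts were then 2, 0, 0 and 1 (NRCWE-043 and NRCWE-044 against control at 54 µg, then their dose steps). Over all features 1663, 191, 164 and 239 were called. In the 54 µg pairs of NRCWE-044 and NRCWE-045 with NRCWE-043 the member count was 1 each, and 600 and 831 of all features were called. Leaving out 1 array gave member counts of 1 to 2 for NRCWE-044 at 54 µg (2 without control replicate 2 or NRCWE-044 replicate 31). They were 0 to 2 and 0 to 4 for the dose steps, 1 to 2 for NRCWE-045 against NRCWE-043 at 54 µg, and 4 to 7 for NRCWE-043 at 54 µg. The cause of these moves was not tested. Signal over background limits the 7 dimmest members. Second probes were tested for 7 members. Their changes at 54 µg had the sign of the probe used in 6, 6 and 7 cases, in the order NRCWE-043, NRCWE-044 and NRCWE-045.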

Other observations

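Other tubulins than the axonemal list member were higher at 54 µg. Tubulins are the subunits of all microtubules, and 12 genes outside the members were gathered after the values of Tubb4b had been seen, so their counts are a description. With NRCWE-043 6 of the 12 rose, with NRCWE-044 7 and with NRCWE-045 2, and the median changes were 0.47, 0.58 and 0.45. Of all features, 10.2%, 5.95% and 0.325% were called in these comparisons, higher or lower. Of those calls, 52.2%, 65.9% and 89.2% were higher. Tubb6 rose with all 3 materials, by 0.89 (adjusted p = 0.00101), 1.18 (adjusted p = 0.000106) and 0.89 (adjusted p = 0.0197) by limma. Tuba1c rose by 0.82 and 0.83 with NRCWE-043 and NRCWE-044, and Tubb2a by 0.53 and 0.69. At 18 µg 0 of the 12 passed by limma under any material, while 5, 1 and 0 had an unadjusted p under 0.05, whereas Tubb4b rose at that dose with NRCWE-043.

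Ccno, a cyclin-like gene that multiciliated cells use when they multiply their centrioles, went the other way from Mcidas with NRCWE-043 at 18 µg. It rose by 0.67 (SE 0.20, adjusted p = 0.0461), and at 54 µg of the same material it changed by 0.05 (adjusted p = 0.928). Goblet and mucous markers had 0 of 7 called at 54 µg by limma (1, 1 and 0 at an unadjusted p under 0.05), with medians of 0.24, 0.77 and -0.25. Basal cell markers had 0 of 6 called (1, 1 and 0 at an unadjusted p under 0.05). Their array mean was at most -0.05 in the controls. With NRCWE-044 it reached 2.10 at 18 µg and 0.91 at 54 µg, with group medians of 0.01 and 0.05.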
